A study of Mus musculus with 13 samples.

Results

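The aortas of mice given β-aminopropionitrile (BAPN) together with fasudil were compared with those of mice given vehicle, across 12884 genes. All libraries that the labels assign to either treatment were taken, 3 with BAPN plus fasudil and 4 with vehicle, which are 7 of the 13 samples of the series. Of 28510 genes with values, those with at least 1 FPKM (fragment counts per length of transcript and per depth of the library) in at least 2 of the 7 libraries were tested. A gene can pass this filter through 1 group alone, and the filter itself then favours a higher level in that group. Elovl3 and Pgk1-rs7, named below, are among those that passed through vehicle alone. Pgk1-rs7 reached 1 FPKM in only 1 BAPN plus fasudil library. Clec4n, AA467197, Cthrc1, Bcat1, Myl2 and Sprr1a are among those that passed through BAPN plus fasudil alone. The study sequenced total RNA from mouse aorta in 4 groups, with the combined treatment given to cause dissection, in which blood splits the layers of the vessel wall. Mice of the combined group drank water with 0.25% BAPN for 1 week, and then BAPN at the same concentration plus fasudil at 150 mg/kg/day. Vehicle mice, 11 in that arm, drank water alone. All had 1 week to settle in and 4 weeks of experiment. The number of mice in the combined arm, and the strain, age and sex of the animals, are not given in the sources used here, nor is the stretch of aorta taken or how much surrounding tissue came with it. Nothing says that replicates came from separate animals, so p-values measure the spread between these samples.

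BAPN blocks lysyl oxidases, the copper enzymes that crosslink collagen and elastin outside the cell, and is used in rodents to weaken the aortic wall. Fasudil inhibits the kinases ROCK1 and ROCK2, which hold myosin in its active state and keep smooth muscle contracted. The wall of the mouse aorta consists of endothelium, layers of smooth muscle between elastic sheets, and an adventitia of fibroblasts and macrophages, and the thoracic part lies in fat that resembles brown fat. Brown adipocytes are rich in mitochondria, burn fatty acids and release the energy as heat through the uncoupling protein UCP1.

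The table gave FPKM and no counts. Low values of short genes, taken as 1 read of an assumed 50 bases, put the depth of these libraries at an estimated 20.3 to 20.9 M reads. Between 11127 and 12694 genes reached 1 FPKM in a library. Genes of the mitochondrial chromosome took 40.5%, 31.3% and 31.4% of all FPKM with BAPN plus fasudil, against 53.3%, 43.6%, 45.6% and 51.6% with vehicle. Values were therefore scaled between libraries, with factors of 1.06, 1.19 and 1.26 for BAPN plus fasudil and of 0.785, 1.01, 0.992 and 0.800 for vehicle. Below, per-library values are scaled FPKM in the order of the replicate numbers, and log2 fold changes (log2FC, BAPN plus fasudil over vehicle) are of scaled FPKM plus 1, which understates changes of genes near 0. Smooth muscle markers were present in all libraries, with Acta2, the smooth muscle actin, at 603, 4765 and 2493 with BAPN plus fasudil and at 1534, 2327, 1675 and 729.9 with vehicle. Markers of some other tissues were high in single libraries, and those of skeletal muscle in several. The 14 skeletal muscle markers summed to 117, 21.1 and 317 with BAPN plus fasudil and to 10.8, 195, 162 and 12.7 with vehicle. Vehicle replicate 3 had a summed level of 14444 over 16 airway epithelial markers, against 10.2 to 22.0 in the other vehicle libraries and 18.9, 250 and 25.2 with BAPN plus fasudil. BAPN plus fasudil replicate 1 had 744 over 12 sympathetic neuron markers, against 6.51 and 91.3 in the other BAPN plus fasudil libraries and 4.59 to 35.8 with vehicle. That replicate also had the highest score on the first principal component, 37.7, in an analysis of 500 genes where this component took 39.0% of the variance. Results without each of these libraries are given below beside those that moved.

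With BAPN plus fasudil the aorta samples had lower levels of many genes for burning and building fat, of the citric acid cycle and of the respiratory chain, and higher levels of macrophage, complement and haemoglobin genes and of a few collagens and matrix proteases. Limma's moderated test with Benjamini-Hochberg adjustment called 1717 of 12884 genes changed at an adjusted p under 0.05, or 13.3%. Of these, 538 rose (4.18%) and 1179 fell (9.15%), and 166 of those that rose and 462 of those that fell did so by at least 2-fold. All 1717 had groups that did not overlap, which held for 13.7% of all tested genes in the upward and 17.3% in the downward direction. The median log2FC of all tested genes was 0.04. Without scaling that median was 0.35 and the split turned to 2311 higher and 554 lower, so each direction below is relative to the scaled median of all genes. The number of calls also rested on single libraries. Without vehicle replicate 1 limma called 0 genes, with 3186 genes at an unadjusted p under 0.05 and a smallest adjusted p of 0.0518, so every call below was lost in that fit. The count was 366 without vehicle replicate 4, 489 without BAPN plus fasudil replicate 2 and 680 without BAPN plus fasudil replicate 3. It was 2237 without BAPN plus fasudil replicate 1, 1202 without vehicle replicate 2 and 1379 without vehicle replicate 3. Of the 1717 genes, those called again were 1392 without BAPN plus fasudil replicate 1, 410 without its replicate 2, 641 without its replicate 3, 1109 without vehicle replicate 2, 1260 without vehicle replicate 3 and 365 without vehicle replicate 4. None of the 30 genes with the highest and lowest log2FC changed direction in any of these fits. They were chosen among genes whose groups did not overlap, so leaving out a library could hardly reverse them. For gene lists with at least 3 calls, counts that moved by over 1.5 times without a library, without scaling or with all 4 groups in 1 fit are given beside the list, with BF1 to BF3 for the BAPN plus fasudil libraries and V2 to V4 for those of vehicle. Genes were named by a fixed rule (the 15 highest and lowest log2FC and the leading calls of each list), and members named beyond it, among them all that did not pass while others of their list did, were chosen after their values were seen.

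**Figure D1:**
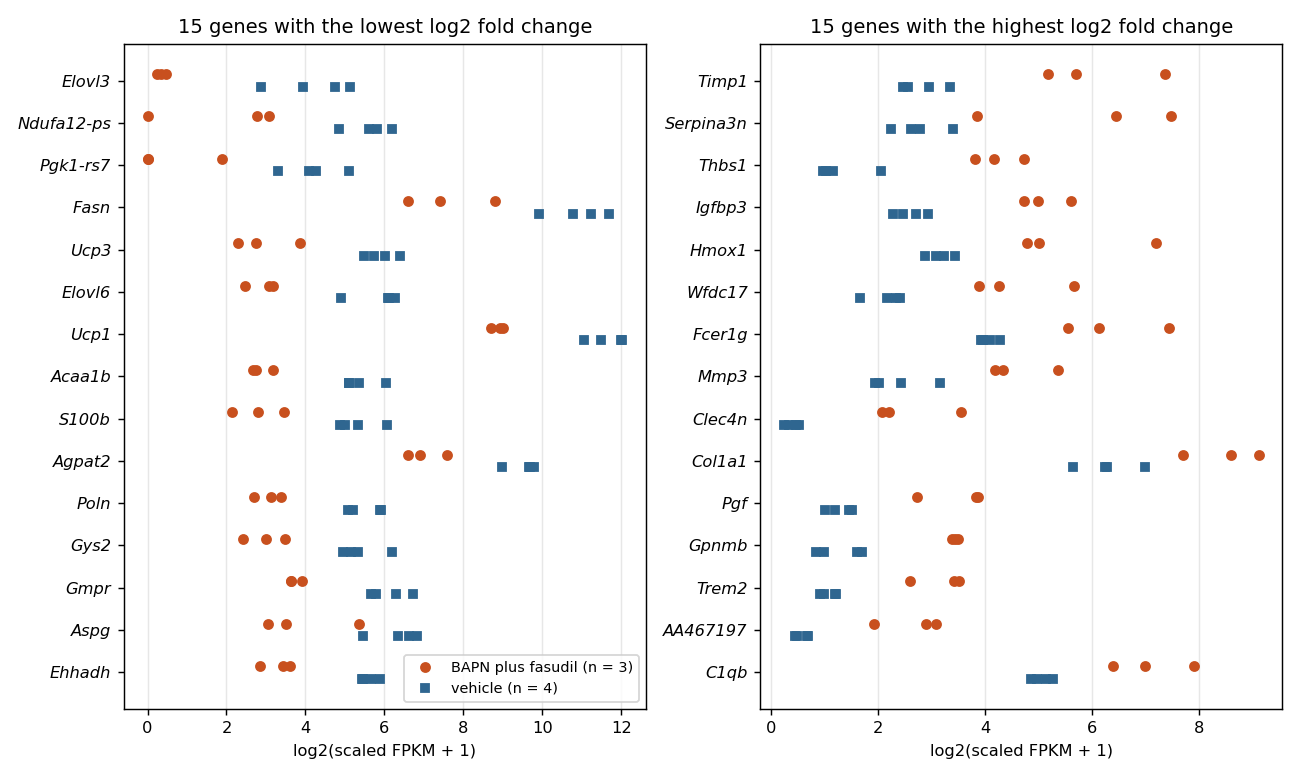
Scaled FPKM on a log2 scale, log2(scaled FPKM + 1), of the 15 genes with the lowest and the 15 with the highest log2 fold change under the naming rule, with 1 point per library (circles, BAPN plus fasudil, n = 3; squares, vehicle, n = 4). The groups do not overlap for any of the 30 genes, as the rule requires, and the closest pair of libraries is that of Aspg, at 39.8 in BAPN plus fasudil replicate 1 and 42.9 in vehicle replicate 3.

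Genes that mark brown fat fell with BAPN plus fasudil. Ucp1, the uncoupling protein that makes heat in brown adipocytes, stood at 508, 412 and 487 with BAPN plus fasudil, against 4077, 2876, 2127 and 4153 with vehicle. All 4 vehicle libraries were far above all 3 BAPN plus fasudil libraries, and Ucp1 (ENSMUSG00000031710.5), on chromosome 8 at 84016981 to 84025081 in GRCm39, fell by 2.77 ± 0.26 (SE) on the log2 scale (limma, adjusted p = 0.0120, and 0.0697 with all 4 groups in 1 fit). Elovl3, which elongates very long fatty acids and is induced by cold in brown fat, was close to 0 with BAPN plus fasudil, at 0.387, 0.184 and 0.278, against 14.5, 25.9, 6.29 and 34.2 with vehicle. Its vehicle levels spread widely, with replicate 3 the lowest, and its log2FC of -3.82 ± 0.50 (SE) was the lowest of all named genes (adjusted p = 0.0145). Ucp3, a mitochondrial carrier related to UCP1, had a log2FC of -2.94 ± 0.38 (SE), with 5.69, 3.88 and 13.6 against 63.6, 43.6, 52.7 and 83.7 in vehicle libraries. Among 19 tested brown adipocyte markers 13 fell and 0 rose (lower calls, 4 with all 4 groups), with a median log2FC of -1.46 against 0.04 for all tested genes. They included Fabp3, a carrier of fatty acids in the cytosol (log2FC -2.19), Otop1, a proton channel (-2.27), Letm1, a mitochondrial ion exchanger (-1.995), and Cidea, a lipid droplet protein (-1.45).

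Genes that steer the brown fat programme did not all pass. Prdm16, a transcriptional regulator of brown fat identity, had 1.94, 4.74 and 4.64 with BAPN plus fasudil and 4.98, 5.77, 3.98 and 3.39 with vehicle, groups that overlap (log2FC -0.26 ± 0.27 (SE), limma adjusted p = 0.548). Ppargc1a, a coactivator that drives mitochondrial genes, ranged so widely that its groups overlap, at 17.7, 2.18 and 2.73 with BAPN plus fasudil and 6.23, 4.78, 9.76 and 21.01 with vehicle (log2FC -0.72 ± 0.70 (SE), adjusted p = 0.512). Adrb3, the adrenergic receptor through which sympathetic nerves switch brown fat on, did fall, to 26.5, 36.1 and 47.2 against 94.9, 77.7, 75.3 and 108 with vehicle (log2FC -1.28 ± 0.22 (SE), adjusted p = 0.0181). Among 19 tested markers of white fat or of adipocytes at large, 6 fell and 1 rose, with a median log2FC of -0.64. Lower calls numbered 10 without BF1, 0 without BF2, 1 without BF3, 2 without V2, 2 without V3, 0 without V4, 3 without scaling and 0 with all 4 groups. Adipoq, the adipocyte hormone adiponectin, had 661, 323 and 471 with BAPN plus fasudil and 569.8, 505, 609 and 852 with vehicle, and the groups overlap (log2FC -0.42 ± 0.28 (SE), adjusted p = 0.341). The member that rose was Lep, which encodes leptin, the hormone that signals fat stores, at 6.09, 5.96 and 10.9 against 2.34, 1.13, 1.18 and 0.513 in vehicle libraries (log2FC 1.93 ± 0.30 (SE), adjusted p = 0.0173). Plin1, which coats the lipid droplet, Fabp4, a fatty acid carrier of adipocytes, and Lpl, the lipase that frees fatty acids from circulating fat, fell, with log2FC of -1.15, -1.01 and -1.28.

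The summed level of the brown adipocyte markers was 2238, 2478 and 2700 with BAPN plus fasudil, against 11233, 7695, 7231 and 12361 with vehicle. Of the 20 markers in the table, 19 reached 1 FPKM in at least 1 library and none was at 0 in all. For the white and general adipocyte list the sums were 14625, 8972 and 13156 with BAPN plus fasudil and 18572, 16431, 17604 and 26098 with vehicle. In whole tissue, fewer cells of a type and less RNA per cell cannot be told apart. The part that the amount of fat in each sample has in the metabolic gene groups described next was not tested.

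**Figure D2:**
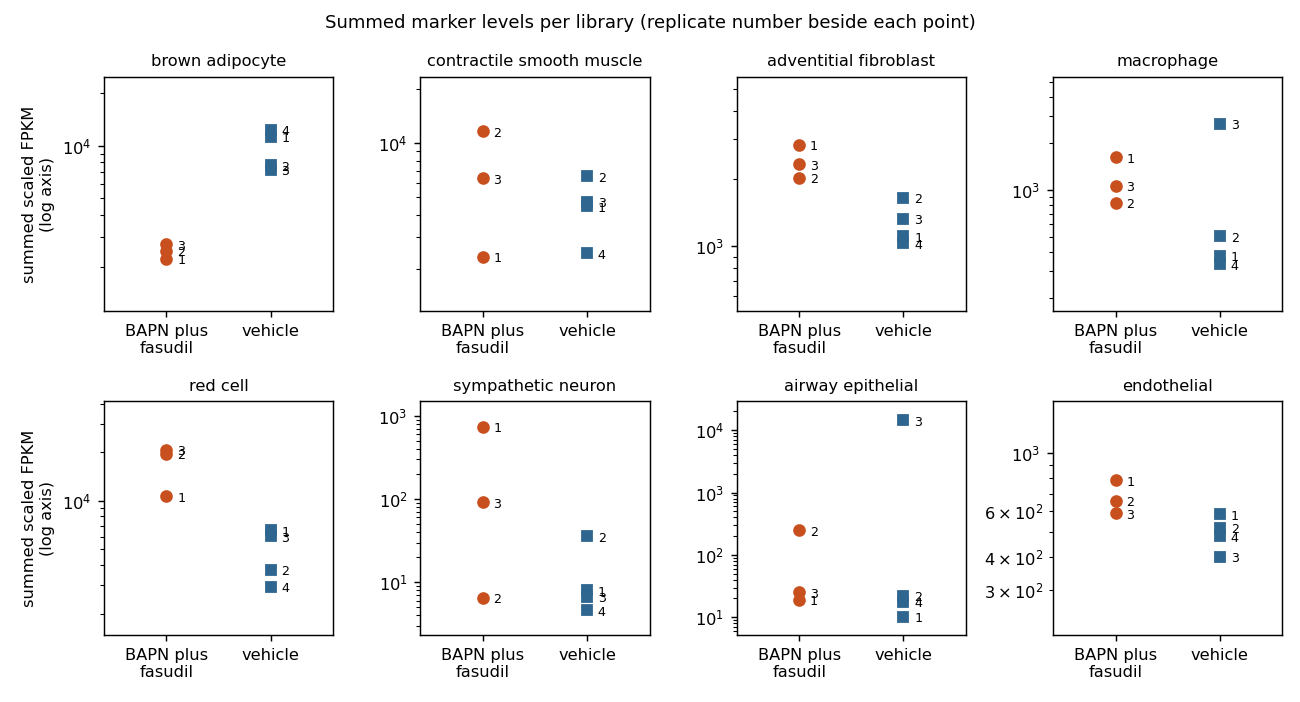
Summed scaled FPKM of 8 cell type marker lists (log axes), 1 point per library with its replicate number (circles, BAPN plus fasudil, n = 3; squares, vehicle, n = 4). Brown adipocyte sums lie at 2238 to 2700 with BAPN plus fasudil and at 7231 to 12361 with vehicle, while vehicle replicate 3 alone reaches 14444 for airway epithelial markers and BAPN plus fasudil replicate 1 reaches 744 for sympathetic neuron markers.

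Nearly the whole respiratory chain was lower with BAPN plus fasudil. Of 37 tested nuclear-encoded subunits of complex I, which passes electrons from NADH to ubiquinone, 36 fell and 0 rose, with a median log2FC of -0.96. Lower calls numbered 13 without BF2, 16 without BF3, 15 without V4 and 10 with all 4 groups. Ndufs5, an accessory subunit of it, stood at 104.8, 119 and 144 with BAPN plus fasudil and at 379, 285, 253 and 363 with vehicle, without overlap (log2FC -1.37 ± 0.19 (SE), limma adjusted p = 0.0163). The remaining subunit, Ndufb4, had a log2FC of -0.71 ± 0.20 (SE) and an adjusted p of 0.0536. Of 21 subunits of complexes III and IV and cytochrome c, which carry the electrons on to oxygen, 20 fell, with a median of -1.07 (lower calls, 3 without BF2, 10 without BF3, 5 without V4 and 5 with all 4 groups), and among them Uqcrq, a small subunit of complex III, had a log2FC of -1.43 ± 0.19 (SE). The exception was Cox6a2, the form of a complex IV subunit found in heart and skeletal muscle, with 5.83, 1.74 and 10.4 with BAPN plus fasudil and 0.382, 3.02, 8.77 and 0.288 with vehicle (adjusted p = 0.403). The brown fat and muscle forms Cox7a1 and Cox8b fell with log2FC of -2.12 and -1.64, and their widely expressed relatives Cox7a2 and Cox8a with -0.95 and -0.88.

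The enzyme that makes ATP from the proton gradient was lower in most of its parts, with 12 of 16 tested ATP synthase genes down, 0 up and a median log2FC of -0.89. Lower calls numbered 3 without BF2, 5 without BF3, 3 without V4 and 5 with all 4 groups. Atp5a1, the alpha subunit of its catalytic head, had a log2FC of -1.15 ± 0.20 (SE) (limma, adjusted p = 0.0189). Atpif1, which encodes the inhibitor of the enzyme, lay on the other side at 76.1, 90.6 and 73.5 with BAPN plus fasudil and 45.4, 49.6, 60.1 and 29.5 with vehicle, without passing the test (log2FC 0.82 ± 0.23 (SE), adjusted p = 0.0573). Atp5g1, which encodes a copy of the membrane ring subunit, likewise had a positive log2FC of 0.73 ± 0.31 (SE) (adjusted p = 0.158), while Atp5g2 and Atp5g3, which encode the same mature protein, fell, with log2FC of -0.56 and -0.56.

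Subunits encoded in the mitochondrion itself were also lower. Of 13 tested mitochondrially encoded genes 8 fell and 0 rose, with a median log2FC of -1.07. Lower calls numbered 1 without BF2, 1 without BF3, 1 without V4 and 2 with all 4 groups. The complex I subunit mt-Nd3 had 274, 243 and 218 with BAPN plus fasudil against 826, 514, 607 and 862 with vehicle, without overlap (log2FC -1.49 ± 0.21 (SE), limma adjusted p = 0.0171). The complex IV subunit mt-Co1, the most abundant of them, had 67068, 30344 and 29556 with BAPN plus fasudil and 73156, 44498, 54570.1 and 72465 with vehicle, where BAPN plus fasudil replicate 1 lay within the vehicle range (log2FC -0.61 ± 0.36 (SE), adjusted p = 0.280). The share of all FPKM taken by the 18 genes of the mitochondrial chromosome in the table was 34.4% ± 5.30 (SD, n = 3) with BAPN plus fasudil and 48.5% ± 4.64 (SD, n = 4) with vehicle, a difference of -14.1 percentage points. An exact two-sided permutation test gave p = 0.0571, the smallest value that 3 against 4 libraries allow, so the design cannot reach 0.05 for a single share. Nuclear genes for making protein inside mitochondria fell in 25 of 33 tested (lower calls, 16 without BF1, 2 without BF2, 8 without BF3, 15 without V2, 3 without V4, 3 without scaling and 7 with all 4 groups), among them Tufm, the mitochondrial elongation factor (log2FC -1.42).

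**Figure D3:**
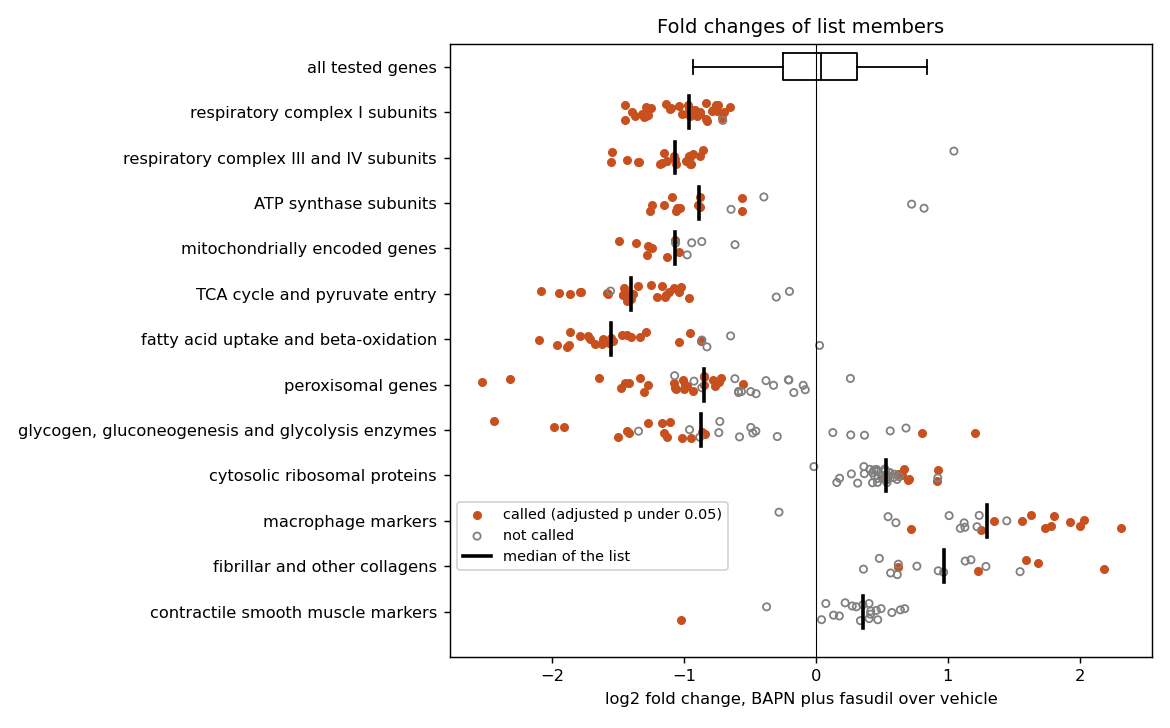
Log2 fold changes of the members of 12 gene lists (filled circles, called at an adjusted p under 0.05; open circles, not called; bars, list medians), below a box for all 12884 tested genes (median, quartiles, and whiskers at 5% and 95%). Members of the respiratory and oxidation lists lie almost all below 0, with medians of -0.96 for complex I, -1.40 for the citric acid cycle and -1.55 for fatty acid oxidation, while the macrophage list has a median of 1.30 and contractile smooth muscle markers one of 0.36.

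The citric acid cycle, which feeds electrons to the chain, and the entry of pyruvate into it were lower at nearly every step, with 26 of 29 tested genes down, 0 up and a median log2FC of -1.40. Lower calls numbered 7 without BF2, 9 without V4 and 6 with all 4 groups. Mpc1, a subunit of the carrier that brings pyruvate into mitochondria, had 196, 145 and 184 with BAPN plus fasudil and 944, 725, 536 and 799 with vehicle, all 3 below all 4 (log2FC -2.08 ± 0.22 (SE), limma adjusted p = 0.0126). Its partner Mpc2 had a log2FC of -1.95, and Pdha1, a subunit of the pyruvate dehydrogenase that turns pyruvate into acetyl-CoA, one of -1.78. Within the cycle, Suclg1 of succinyl-CoA ligase, Dlst of the oxoglutarate dehydrogenase complex, Mdh2, the mitochondrial malate dehydrogenase, and Sdhb, the iron-sulphur subunit of succinate dehydrogenase, had log2FC of -1.86, -1.46, -1.41 and -1.40. The 3 members that did not pass were Pdk4, a kinase that switches pyruvate dehydrogenase off, with -1.56 (adjusted p = 0.106), and the NADP-dependent isocitrate dehydrogenases. Of those, Idh2 in mitochondria had 149, 140.2 and 142 with BAPN plus fasudil and 180.4, 131, 149.7 and 209.9 with vehicle, levels that overlap (log2FC -0.20 ± 0.18 (SE), adjusted p = 0.469), and Idh1 in the cytosol had a log2FC of -0.30 ± 0.33 (SE) (adjusted p = 0.560). The NAD-dependent subunit Idh3a of the cycle itself fell, with -1.46 ± 0.30 (SE). The breakdown of branched-chain amino acids, which ends in the same cycle, was lower in 15 of 22 tested genes and higher in 1, with a median of -0.80. Lower calls numbered 2 without BF2, 6 without BF3, 3 without V4 and 3 with all 4 groups. Pcca, part of propionyl-CoA carboxylase, and Bckdha, part of the branched-chain keto acid dehydrogenase, had log2FC of -1.40 and -1.27.

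Most genes of fatty acid oxidation fell. Of 27 tested genes for uptake and mitochondrial beta-oxidation 23 fell and 0 rose (lower calls, 9 with all 4 groups), with a median log2FC of -1.55. Slc25a20, which carries acylcarnitines across the inner membrane, had 56.9, 61.1 and 68.7 with BAPN plus fasudil and 268, 199.7, 175 and 295 with vehicle. The vehicle libraries were all higher, and its log2FC was -1.87 ± 0.20 (SE) (limma, adjusted p = 0.0126). Hadhb and Hadha, the subunits of the trifunctional protein that shortens long acyl chains, had log2FC of -1.87 and -1.62, and Etfdh, which hands the electrons on to ubiquinone, one of -1.79. Slc27a2, which activates very long fatty acids, and Cpt2, the inner carnitine acyltransferase, had -2.09 and -1.96. The outer carnitine acyltransferase, the gate of the pathway, exists as a muscle and brown fat form and a liver form. Cpt1b, the muscle and brown fat form, had 117, 80.9 and 120.9 with BAPN plus fasudil against 397, 258, 251 and 432 with vehicle (log2FC -1.62 ± 0.26 (SE), adjusted p = 0.0173). Cpt1a, the liver form, had 9.02, 10.0 and 8.86 with BAPN plus fasudil and 7.999, 12.3, 10.8 and 6.33 with vehicle, groups that overlap throughout (log2FC 0.03 ± 0.21 (SE), adjusted p = 0.939).

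Peroxisomes, which shorten very long and branched fatty acids, had 25 of 42 tested genes lower, 0 higher and a median of -0.85. Lower calls numbered 7 without BF2, 11 without BF3, 12 without V4 and 13 with all 4 groups. Ehhadh, the peroxisomal bifunctional enzyme, had 9.88, 6.17 and 11.1 with BAPN plus fasudil and 49.97, 42.7, 42.2 and 58.5 with vehicle, without overlap (log2FC -2.32 ± 0.21 (SE), limma adjusted p = 0.0120). The peroxisomal thiolase is encoded by a pair of near-identical genes, whose reads the counting could have split unevenly. Acaa1b fell to 5.73, 5.41 and 8.004 against 33.7, 39.8, 33.4 and 64.3 with vehicle (log2FC -2.53 ± 0.25 (SE), adjusted p = 0.0120), and Acaa1a had a log2FC of -0.38 ± 0.12 (SE) without passing (adjusted p = 0.0780). Abcd3, a transporter of fatty acids into the peroxisome, Pex16, which helps to form its membrane, and Crat, carnitine acetyltransferase, had log2FC of -1.64, -1.45 and -1.48.

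Some genes that build fatty acids fell too, as did most of those that store them as triglyceride. Fasn, the fatty acid synthase, had 95.6, 169 and 445 with BAPN plus fasudil, against 3279, 2389.9, 971 and 1748 with vehicle. Vehicle replicate 3 was the lowest of its group and still above the BAPN plus fasudil libraries, and the log2FC was -3.30 ± 0.58 (SE) (limma, adjusted p = 0.0198). That adjusted p was 0.0552 without BAPN plus fasudil replicate 2 and 0.0560 without vehicle replicate 4. Elovl6, which elongates the product of the synthase, had 8.003, 4.58 and 7.48 with BAPN plus fasudil and 75.5, 67.6, 29.1 and 68.9 with vehicle, again with replicate 3 lowest among the vehicle libraries (log2FC -2.94 ± 0.35 (SE), adjusted p = 0.0139). Of 24 tested genes of synthesis, elongation and desaturation 9 fell and 1 rose, with a median of -0.90. Lower calls numbered 4 without BF2, 4 without V2, 3 without V4 and 5 with all 4 groups. Acaca, the carboxylase of the first step, and Hsd17b12, a reductase of elongation, had -2.14 and -1.42. Srebf1, which encodes a transcription factor of this pathway, had 66.4, 62.5 and 74.6 with BAPN plus fasudil and 88.7, 83.9, 59.4 and 83.0 with vehicle, with overlap (log2FC -0.20 ± 0.16 (SE), adjusted p = 0.440).

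Of the enzymes that join fatty acids to glycerol and of lipid droplet proteins, 15 of 25 tested genes fell and 1 rose, with a median log2FC of -1.21. Lower calls numbered 6 without BF2, 9 without BF3, 7 without V4 and 5 with all 4 groups. Agpat2, which adds the middle fatty acid and whose loss causes lipodystrophy, had 95.3, 118 and 192 with BAPN plus fasudil and 827, 808, 506 and 878 with vehicle, without overlap (log2FC -2.50 ± 0.29 (SE), limma adjusted p = 0.0133). Gk, glycerol kinase, Gpam, which adds the outer fatty acid, and Mogat1, a monoacylglycerol acyltransferase, had log2FC of -2.19, -1.72 and -1.93. Mgll, the lipase that splits the last fatty acid off, had -1.78. The member that rose was Lpin3, a phosphatidate phosphatase, with 4.65, 5.24 and 4.91 against 2.87, 3.31, 3.16 and 2.14 in vehicle libraries (log2FC 0.63 ± 0.14 (SE), adjusted p = 0.0298), while its relative Lpin1 of fat and muscle had -0.55 ± 0.35 (SE) (adjusted p = 0.313).

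In sugar metabolism more genes fell than rose. Of 32 tested genes of glycogen, gluconeogenesis and glycolysis 15 fell and 2 rose, with a median log2FC of -0.87. Lower calls numbered 4 without BF2 and 5 without V4. Higher calls numbered 1 without BF2, 0 without BF3, 0 without V4 and 4 without scaling, beside 4.18% of all tested genes called higher. Gys2, the glycogen synthase known from liver and fat, had 4.31, 6.96 and 10.2 with BAPN plus fasudil and 39.1, 34.4, 29.8 and 72.8 with vehicle, without overlap (log2FC -2.44 ± 0.35 (SE), limma adjusted p = 0.0173). Fbp2, a fructose bisphosphatase of muscle, had 1.14, 1.20 and 1.25 against 7.40, 9.47, 5.55 and 8.90 with vehicle (log2FC -1.99 ± 0.17 (SE)). Of glycolysis, Pfkl, the liver phosphofructokinase, Pgam1, phosphoglycerate mutase, and the lactate dehydrogenase subunit Ldhb had log2FC of -1.43, -1.13 and -1.27. The members that rose were Slc2a1, the glucose transporter GLUT1 that most cells carry, with 11.1, 14.9 and 15.5 against 4.56, 5.97, 8.40 and 3.48 in vehicle libraries (log2FC 1.21 ± 0.26 (SE), adjusted p = 0.0279), and Pck2, the mitochondrial form of phosphoenolpyruvate carboxykinase (0.81 ± 0.15 (SE), adjusted p = 0.0208). The insulin-responsive transporter GLUT4, encoded by Slc2a4, fell to 62.2, 48.8 and 68.4 against 129, 94.8, 84.9 and 134 with vehicle (log2FC -0.87 ± 0.21 (SE), adjusted p = 0.0369). Pck1, the cytosolic carboxykinase that in fat feeds glycerol synthesis, had -1.34 ± 0.46 (SE) and did not pass (adjusted p = 0.0920).

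Pairs of related genes in these pathways were picked after their values were seen. Both members were called, in opposite directions, for Scd1 and Scd2 and for Slc2a4 and Slc2a1. In the other pairs both fell or a member did not pass. Scd1, the stearoyl-CoA desaturase of fat and liver, fell to 246, 88.5 and 269.8 with BAPN plus fasudil against 1078, 986, 527 and 733 with vehicle (log2FC -2.14 ± 0.43 (SE), limma adjusted p = 0.0251). Scd2, the form known from brain and other tissues, rose to 9.34, 14.1 and 16.4 against 4.83, 7.98, 5.87 and 4.14 with vehicle (log2FC 1.09 ± 0.24 (SE), adjusted p = 0.0310). The groups did not overlap for either desaturase. Bcat1, the cytosolic branched-chain aminotransferase, rose to 1.13, 1.04 and 1.33 against 0.586, 0.427, 0.403 and 0.438 with vehicle (log2FC 0.57 ± 0.13 (SE)), while the mitochondrial Bcat2 had -0.04 ± 0.23 (SE) (adjusted p = 0.932). Both lactate dehydrogenase subunits fell, with -1.17 for Ldha and -1.27 for Ldhb, as did both glycogen synthases, with -2.44 for Gys2 and -1.02 for the muscle form Gys1. Bcat1 passed the filter on low values through the BAPN plus fasudil libraries alone. No test of the difference within a pair was run.

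**Figure D4:**
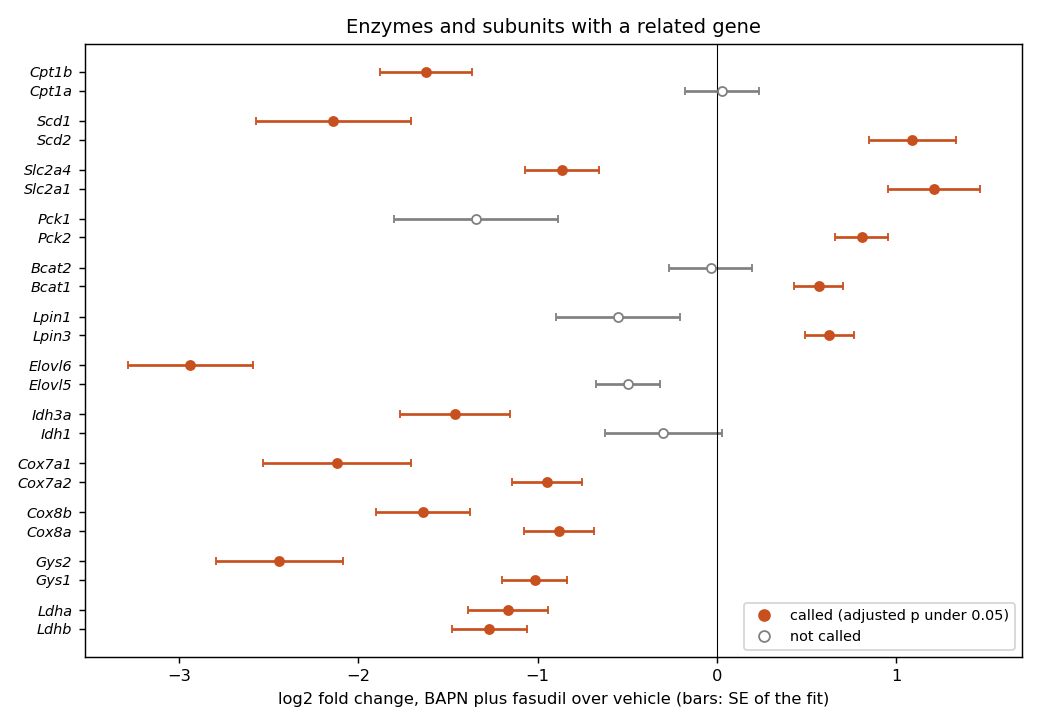
Log2 fold changes of BAPN plus fasudil over vehicle in pairs of related enzymes, transporters and subunits (points, estimates of the fit; bars, SE; filled, adjusted p under 0.05; open, not called). Scd1 lies at -2.14 and Scd2 at 1.09, Slc2a4 at -0.87 and Slc2a1 at 1.21, and Cpt1b at -1.62 and Cpt1a at 0.03, whereas Ldha and Ldhb lie together at -1.17 and -1.27.

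Few genes of cholesterol synthesis and uptake passed, with 3 of 23 tested lower and 0 higher, beside 9.15% of all tested genes called lower. Lower calls numbered 6 without BF1, 1 without BF2 and 1 without V4. The list median was -0.25 and turned to 0.09 without scaling. The 3 were Hmgcs1, the synthase that makes HMG-CoA, at 19.8, 16.02 and 24.3 with BAPN plus fasudil and 49.8, 44.1, 41.2 and 63.8 with vehicle (log2FC -1.27 ± 0.19 (SE), limma adjusted p = 0.0173), Insig1, a sterol-regulated inhibitor of the pathway (log2FC -1.29), and Pmvk, phosphomevalonate kinase (-0.79). Cytosolic ribosomal proteins went the other way from their mitochondrial counterparts, with 12 of 42 tested genes higher, 0 lower and a median of 0.53. Higher calls numbered 5 without BF1, 1 without BF2, 5 without V2, 3 without V3, 0 without V4, 41 without scaling and 5 with all 4 groups. Rpl12 and Rps23, proteins of the large and the small subunit, had log2FC of 0.92 and 0.93, and processed copies of such genes can share their reads. Of 7 tested histone genes 2 fell, H4c8 to 2.00, 4.42 and 6.55 against 22.9, 18.7, 18.3 and 27.9 with vehicle (log2FC -2.19 ± 0.31 (SE), adjusted p = 0.0171) and H2bc4 with -1.24. Of 16 circadian clock genes 3 fell (lower calls, 0 without BF3, 1 without V4 and 0 with all 4 groups), Ciart, a repressor of the clock (-1.02), Hlf, a clock-controlled transcription factor (-1.02), and Nr1d2, the receptor REV-ERB beta (-0.46), and the hour of collection is not given in the sources used here.

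Genes lowest under the naming rule also included some with less certain counts or other roles. Ndufa12-ps, a processed pseudogene of a complex I subunit, had 7.40, 0 and 5.84 with BAPN plus fasudil and 71.7, 48.3, 27.7 and 54.9 with vehicle (log2FC -3.67 ± 0.73 (SE), limma adjusted p = 0.0246), and without vehicle replicate 4 the adjusted p was 0.0702. Reads of such a copy can be shared with Ndufa12, which fell with a log2FC of -0.88. Pgk1-rs7, a sequence related to the glycolytic gene Pgk1, was at 0 in BAPN plus fasudil replicates 1 and 2 and had a log2FC of -3.57 ± 0.57 (SE), with the same doubt. Poln, a DNA polymerase, overlaps Haus3 and other genes, so its log2FC of -2.45 ± 0.27 (SE) is uncertain as well. S100b, a calcium-binding protein known from glia and also made by adipocytes, had 3.43, 6.003 and 9.98 with BAPN plus fasudil and 66.4, 28.2, 31.0 and 39.4 with vehicle (log2FC -2.52 ± 0.38 (SE), adjusted p = 0.0173), while 9 other tested Schwann cell markers were not called. Gmpr, a GMP reductase, had 14.1, 11.4 and 11.5 against 76.8, 54.0, 49.5 and 104 with vehicle (log2FC -2.38 ± 0.26 (SE)), without overlap, and its adjusted p in limma's fit of all 4 groups was 0.0603. Aspg, an asparaginase, had a log2FC of -2.34 ± 0.57 (SE) (adjusted p = 0.0389), with BAPN plus fasudil replicate 1 just under the lowest vehicle library, and its adjusted p was 0.0990 without BAPN plus fasudil replicate 2, 0.112 without BAPN plus fasudil replicate 3, 0.0742 without vehicle replicate 2 and 0.105 without vehicle replicate 4.

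**Figure D5:**
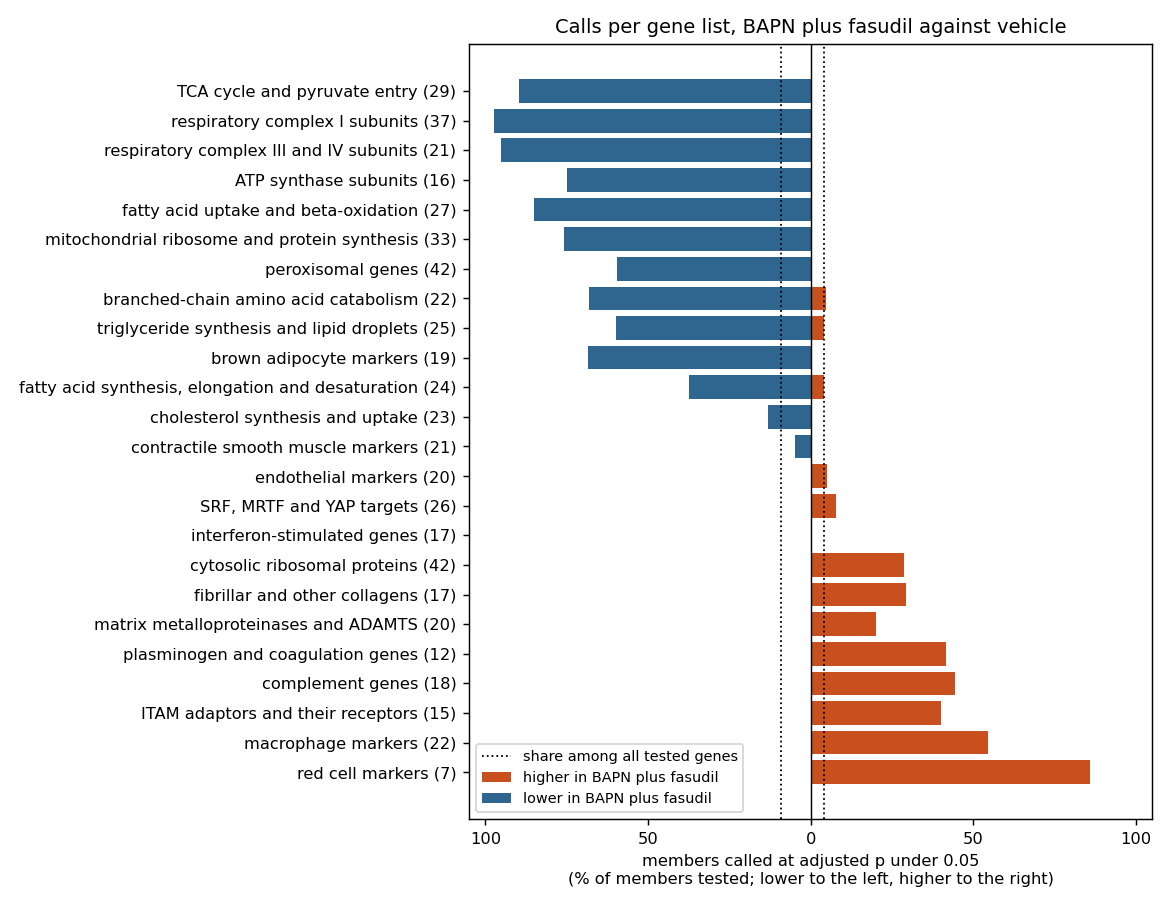
Share of tested members called at an adjusted p under 0.05 in 24 gene lists (bars to the left, lower with BAPN plus fasudil; bars to the right, higher; number of tested members in brackets), with dotted lines at the 9.15% of all tested genes called lower and the 4.18% called higher. Oxidative lists reach 36 of 37 members lower for complex I, and red cell markers 6 of 7 and macrophage markers 12 of 22 higher.

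Genes of macrophages, the phagocytes of the adventitia and of inflamed tissue, were higher with BAPN plus fasudil. Of 22 tested macrophage markers 12 rose and 0 fell, with a median log2FC of 1.30. Higher calls numbered 5 without BF3, 7 without V3 and 2 without V4. C1qb, a chain of the complement starter C1q that tissue macrophages make, had 237, 83.2 and 126 with BAPN plus fasudil, against 34.1, 37.6, 28.2 and 30.2 with vehicle. The vehicle libraries lay close together and BAPN plus fasudil replicate 1 was the highest of all, with a log2FC of 2.03 ± 0.32 (SE) (limma, adjusted p = 0.0175, and 0.0512 without vehicle replicate 4). Ms4a7, a membrane protein of macrophages, was even among libraries, at 5.35, 4.75 and 6.92 against 1.41, 1.16, 0.776 and 1.24 with vehicle (log2FC 1.63 ± 0.16 (SE), adjusted p = 0.0120). Mpeg1, a pore-forming protein of phagocytes, Csf1r, the receptor that keeps macrophages alive, and Mrc1, the mannose receptor, had log2FC of 1.93, 1.25 and 1.35. Lyz2, lysozyme, was chosen after its values were seen, with 267, 143 and 257 with BAPN plus fasudil and 51.5, 72.8, 506 and 65.0 with vehicle, where vehicle replicate 3 was the highest of the 7 (log2FC 1.01 ± 0.77 (SE), adjusted p = 0.401). The summed level of the macrophage list was 1624, 824 and 1068 with BAPN plus fasudil and 376, 502, 2681 and 330 with vehicle. All 22 markers reached 1 FPKM in at least 1 library, and the airway markers given above were high in that same vehicle replicate 3; their part was not tested.

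The receptors that signal through the ITAM adaptors, small membrane proteins that couple phagocytic and lectin receptors to the kinase SYK, rose in 6 of 15 tested genes, with 0 lower and a median log2FC of 1.40. Higher calls numbered 3 without V4 and 10 without scaling. The adaptor Fcer1g had 171, 46.0 and 69.2 with BAPN plus fasudil and 14.5, 18.4, 14.2 and 16.02 with vehicle, with replicate 1 the highest (log2FC 2.31 ± 0.40 (SE), limma adjusted p = 0.0189, and 0.0547 without vehicle replicate 4). The adaptor Tyrobp, also called DAP12, had a log2FC of 2.00 ± 0.32 (SE). Trem2, a lipid-sensing receptor that pairs with it, had 5.04, 10.4 and 9.69 with BAPN plus fasudil and 1.34, 1.29, 0.897 and 1.00 with vehicle, and here replicate 1 was the lowest of its group (log2FC 2.09 ± 0.23 (SE), adjusted p = 0.0128). Clec4n, the lectin receptor dectin-2, had 3.62, 3.21 and 10.7 with BAPN plus fasudil, against 0.191, 0.447, 0.272 and 0.388 with vehicle, all below 1 (log2FC 2.21 ± 0.35 (SE)). Fcgr3, an Fc receptor, and Clec7a, the glucan receptor dectin-1, had log2FC of 1.75 and 0.98. Gpnmb, a glycoprotein of macrophages loaded with lipid, was even among the BAPN plus fasudil libraries, at 9.91, 9.50 and 10.3 with BAPN plus fasudil and 0.981, 2.04, 2.28 and 0.800 with vehicle (log2FC 2.16 ± 0.23 (SE), adjusted p = 0.0126). The whole list of lipid-laden macrophage and lysosome genes had 2 of 24 higher and 1 lower, beside 4.18% and 9.15% of all tested genes. Its median of 0.05 was near that of all genes. Higher calls numbered 5 without BF1, 1 without BF3, 1 without V4, 8 without scaling and 1 with all 4 groups.

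Complement genes rose in 8 of 18 tested, with 0 lower and a median of 0.87. Higher calls numbered 2 without BF3, 4 without V3 and 1 without V4. Besides the chains of C1q, they included the receptors C3ar1 (log2FC 0.89) and C5ar1 (0.91) for the released fragments C3a and C5a, the regulator Serping1 (1.502), which inhibits the starter complex, and the protease C1ra (1.16). Of 26 cytokines, chemokines and their receptors 6 rose and 0 fell. Higher calls numbered 10 without BF2, 1 without BF3, 2 without V3, 2 without V4 and 2 with all 4 groups. Cxcr4, the receptor for the chemokine CXCL12, had 8.06, 6.40 and 4.66 with BAPN plus fasudil against 1.01, 1.18, 1.65 and 1.03 with vehicle, without overlap (log2FC 1.72 ± 0.19 (SE), limma adjusted p = 0.0126). Cxcl16, a chemokine that also binds oxidised lipid, Ccr2, a receptor of incoming monocytes, and Csf1, the growth factor of macrophages, had log2FC of 1.19, 0.77 and 0.84. Wfdc17, a small secreted protein of activated macrophages, had 49.6, 13.8 and 18.1 with BAPN plus fasudil and 3.48, 4.31, 2.19 and 4.04 with vehicle (log2FC 2.46 ± 0.41 (SE), adjusted p = 0.0181, and 0.0512 without vehicle replicate 4). AA467197, the mouse counterpart of a human gene also called NMES1, rose to 6.49, 2.83 and 7.50 against 0.599, 0.397, 0.615 and 0.375 with vehicle (log2FC 2.07 ± 0.27 (SE), limma adjusted p = 0.0145, and 0.107 with all 4 groups in 1 fit). None of 17 interferon-stimulated genes and none of 13 genes of antigen presentation on MHC class II passed in limma's test, with 0 in each at an unadjusted p under 0.05, and their medians of 0.48 and 0.59 turned to -0.44 and -0.18 without BAPN plus fasudil replicate 1.

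The promoters of several genes that rose hold a loose form of the AP-1 site, searched with any base at its middle letter. In RefSeq promoters of GRCm38.p6, the letters TGANTCA of AP-1, which is made of FOS and JUN proteins, occur in the 250 bases before the start of 39 of 407 genes called higher (9.58%), of 45 of 920 called lower (4.89%) and of 554 of all 9775 tested genes with a promoter (5.67%). These letters read alike on both strands. The stretches below are the 100 bases before the gene start of 6 genes that rose, picked after their values were seen because they carry the motif, in lower case with the motif in capitals, 5′ to 3′ on the gene's strand. They belong to the stromelysin gene Mmp3 (chr9:7445722-7445821, + strand), the urokinase receptor gene Plaur (chr7:24462383-24462482, + strand), Trem2 (chr17:48346301-48346400, + strand), AA467197 (chr2:122637787-122637886, + strand), the lysosomal glycoprotein gene Cd68 (chr11:69666171-69666270, - strand) and Ms4a7 (chr19:11334696-11334795, - strand).
Mmp3: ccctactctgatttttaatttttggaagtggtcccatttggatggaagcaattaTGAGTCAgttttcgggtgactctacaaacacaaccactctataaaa
Plaur: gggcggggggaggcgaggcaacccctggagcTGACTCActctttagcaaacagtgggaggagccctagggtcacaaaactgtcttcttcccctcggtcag
Trem2: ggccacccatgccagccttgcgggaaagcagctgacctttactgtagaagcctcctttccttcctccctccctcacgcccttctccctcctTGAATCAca
AA467197: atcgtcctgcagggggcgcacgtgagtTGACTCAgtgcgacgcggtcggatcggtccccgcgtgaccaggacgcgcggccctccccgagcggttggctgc
Cd68: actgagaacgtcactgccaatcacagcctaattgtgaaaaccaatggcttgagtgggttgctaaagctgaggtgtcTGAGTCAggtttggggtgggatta
Ms4a7: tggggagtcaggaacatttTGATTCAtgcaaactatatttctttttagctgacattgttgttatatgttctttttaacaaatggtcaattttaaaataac
The motif begins 46 bases before the start in Mmp3, 69 in Plaur, 9 in Trem2, 73 in AA467197, 24 in Cd68 and 81 in Ms4a7. The middle letter is A in Trem2, T in Ms4a7 and C or G in the others, and the shares above take all these forms together. The matches are descriptions of the letters and not of binding. Of other motifs searched on both strands, a palindrome of 10 letters bound by NRF1, a regulator of respiratory genes, occurred in 29 of 920 promoters of genes called lower (3.15%), in 5 of 407 called higher (1.23%) and in 1.84% of all. The letters TCAAGGTCA, a site of the ERR receptors, which also regulate respiratory genes, occurred in 0.543% of those called lower, 1.23% of those called higher and 0.358% of all, in each case in few promoters (5, 5 and 35). GAGGAAGT, a site of the macrophage factor PU.1, occurred in 3.93% of those called higher, 2.72% of those called lower and 2.91% of all. A pair of repeats bound by PPAR receptors occurred in 3 of the 9775.

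Some genes of the extracellular matrix rose with BAPN plus fasudil, among them fibrillar collagens that lysyl oxidases crosslink. Col1a1, a chain of type I collagen, had 207, 551 and 386 with BAPN plus fasudil and 74.9, 126, 76.2 and 48.8 with vehicle. The groups do not overlap and replicate 1 was the lowest of the BAPN plus fasudil libraries, with a log2FC of 2.18 ± 0.40 (SE) (limma, adjusted p = 0.0207). That p was 0.0552 without BAPN plus fasudil replicate 2, 0.0572 without BAPN plus fasudil replicate 3 and 0.0556 without vehicle replicate 4. Of 17 tested collagens 5 rose and 0 fell, with a median of 0.97. Higher calls numbered 12 without BF1, 1 without BF2, 0 without BF3, 1 without V3, 0 without V4, 8 without scaling and 0 with all 4 groups. Those that rose included Col1a2 (log2FC 1.68), Col3a1 of type III collagen (1.59) and Col4a1 of basement membrane (0.62). Of 20 genes for processing and crosslinking collagen 3 rose, among them Adamts2, which trims procollagen (1.26), and P4ha3, a prolyl hydroxylase (0.74). The 20 had higher calls, 13 without BF1, 0 without BF2, 0 without BF3, 0 without V3, 0 without V4, 9 without scaling and 0 with all 4 groups.

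The enzymes that BAPN inhibits were measured as transcripts. Lox, the founding lysyl oxidase, had 18.9, 62.4 and 50.8 with BAPN plus fasudil, against 9.36, 12.2, 10.0 and 5.78 with vehicle, without overlap (log2FC 2.00 ± 0.41 (SE), limma adjusted p = 0.0262). The call was lost without BAPN plus fasudil replicate 2 (adjusted p = 0.0691), without BAPN plus fasudil replicate 3 (0.0774) and without vehicle replicate 4 (0.0703). Loxl1, which serves elastic fibres, had 37.1, 116 and 84.1 with BAPN plus fasudil and 38.2, 64.2, 37.5 and 31.6 with vehicle, with replicate 1 inside the vehicle range (log2FC 0.77 ± 0.40 (SE), adjusted p = 0.228, and 0.0374 without that replicate). Loxl2 and Loxl3 had log2FC of 0.84 ± 0.27 (SE) and 0.92 ± 0.37 (SE) (adjusted p = 0.0763 and 0.137), and both passed without BAPN plus fasudil replicate 1, with 0.0274 and 0.0289. Loxl4 was below the filter on low values and was not tested.

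Elastin itself, the protein of the elastic sheets, was very uneven. Eln had 282, 4321 and 2197 with BAPN plus fasudil and 294, 404, 349 and 139.7 with vehicle, so that replicates 2 and 3 were far above vehicle and replicate 1 within its range (log2FC 2.33 ± 0.88 (SE), limma adjusted p = 0.118). Of 15 tested elastic fibre genes 3 rose and 0 fell (higher calls, 7 without BF1, 1 without BF2, 0 without BF3, 1 without V3, 0 without V4 and 5 without scaling), namely Mfap2 and Mfap5, glycoproteins of the microfibrils, and the fibulin Fbln2, with log2FC of 1.65, 1.29 and 1.11. Of 14 small leucine-rich proteoglycans and related glycoproteins 3 rose and 0 fell (higher calls, 8 without BF1, 1 without BF2, 1 without BF3, 1 without V4 and 5 without scaling), among them Dcn, decorin, which binds collagen fibrils (1.16 ± 0.24 (SE)), and Aspn, asporin (0.75 ± 0.12 (SE)).

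Few matricellular proteins, which signal from the matrix without building it, passed the test. Thbs1, thrombospondin-1, which activates latent TGF-beta, had 17.0, 12.98 and 25.4 with BAPN plus fasudil, against 1.25, 1.03, 3.15 and 0.975 with vehicle, where replicate 3 was set apart at the top of the vehicle group (log2FC 2.93 ± 0.32 (SE), limma adjusted p = 0.0126). Cthrc1, a protein of injured adventitia, had 3.44, 7.53 and 7.81 against 0.930, 0.606, 0.796 and 0.538 with vehicle (log2FC 2.02 ± 0.25 (SE)). These were the 2 of 21 tested members that rose, beside 4.18% of all tested genes called higher, and 0 fell. Higher calls numbered 8 without BF1 and 7 without scaling. Spp1, osteopontin, differed widely between libraries, with 3.63, 18.1 and 588 with BAPN plus fasudil and 0.395, 0.635, 1.69 and 0.188 with vehicle. All 3 were above all 4, yet BAPN plus fasudil replicate 3 held most of the level, and the log2FC of 4.51 ± 1.45 (SE) did not pass (adjusted p = 0.0795). Ccn1 and Ccn2, matricellular targets of YAP, had 1.75 ± 0.53 (SE) and 1.72 ± 0.53 (SE) (adjusted p = 0.0666 and 0.0720).

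Some enzymes that cut the matrix rose, and so did some protease inhibitors. Of 20 tested metalloproteinases of the MMP, ADAM and ADAMTS families 4 rose and 0 fell (higher calls, 2 without BF2, 2 without BF3, 1 without V4 and 2 with all 4 groups), and of 16 protease inhibitors 3 rose and 0 fell. Higher calls numbered 1 without V4 and 7 without scaling. Mmp3, stromelysin-1, had 17.2, 19.3 and 40.1 with BAPN plus fasudil and 2.84, 7.98, 4.37 and 3.04 with vehicle, with replicate 3 highest and no overlap (log2FC 2.24 ± 0.38 (SE), limma adjusted p = 0.0182, and 0.0545 without vehicle replicate 4). Mmp2, a gelatinase, had 65.2, 109 and 120.1 against 27.6, 39.6, 27.1 and 20.5 with vehicle (log2FC 1.73 ± 0.27 (SE), adjusted p = 0.0173), and Mmp14, its activator on the cell surface, had 1.602 ± 0.42 (SE). The highest log2FC under the naming rule was that of Timp1, an inhibitor of these enzymes, at 35.3, 51.2 and 163 with BAPN plus fasudil, against 4.93, 9.11, 6.73 and 4.55 with vehicle. Replicate 3 was the highest and the groups stood apart, with a log2FC of 3.25 ± 0.50 (SE) (adjusted p = 0.0173). Timp1 (chromosome X, 20736405 to 20740974 in GRCm39) lies within Syn1 on the opposite strand, whose reads cannot be told apart where the strand was not used. Its relatives Timp2 and Timp3 had log2FC of 0.81 ± 0.37 (SE) and 0.45 ± 0.17 (SE) (adjusted p = 0.175 and 0.116). Serpina3n, an acute-phase inhibitor of serine proteases, had 177, 13.4 and 86.4 with BAPN plus fasudil and 3.77, 9.59, 5.93 and 5.16 with vehicle, and replicate 2 was only a little above the vehicle range (log2FC 3.16 ± 0.78 (SE), adjusted p = 0.0405). It passed in 1 of the 7 fits without a library, that without BAPN plus fasudil replicate 2, and its adjusted p in the others was 0.0559 to 0.114.

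Genes of plasminogen activation and of coagulation control rose in 5 of 12 tested, with 0 lower. Higher calls numbered 3 without BF2, 2 without BF3, 3 without V3, 2 without V4 and 8 without scaling. Plaur, the urokinase receptor whose promoter is printed above, had 15.7, 9.23 and 9.68 with BAPN plus fasudil against 2.27, 2.83, 4.73 and 1.78 with vehicle, without overlap (log2FC 1.70 ± 0.28 (SE), limma adjusted p = 0.0176). Procr, the receptor of the anticoagulant protein C, and Pros1 and Gas6, related ligands that also bind dying cells, had log2FC of 1.02, 0.74 and 1.22. F13a1, the fibrin-crosslinking factor made by resident macrophages, had 1.56 and is also among the macrophage markers.

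Among growth signals the changes were few. Tgfb1, the main TGF-beta of the vessel wall, had 27.1, 40.9 and 32.9 with BAPN plus fasudil and 15.97, 18.2, 15.2 and 13.5 with vehicle, without overlap (log2FC 1.04 ± 0.16 (SE), limma adjusted p = 0.0173). Smad7, an inhibitor that TGF-beta induces, Fst, follistatin, which traps activins, and Gdf15, a stress-induced relative, had log2FC of 0.73, 1.73 and 0.87, and these 4 of 24 tested genes of the family rose while 0 fell. Higher calls numbered 9 without BF1, 2 without BF2, 1 without BF3, 1 without V4, 10 without scaling and 2 with all 4 groups. Of 30 growth factors of vessels and insulin-like growth factor genes 3 rose and 1 fell, beside 4.18% and 9.15% of all tested genes. Higher calls numbered 8 without BF1 and 7 without scaling. Igfbp3, which binds insulin-like growth factors in blood and tissue, had 25.7, 47.6 and 30.6 with BAPN plus fasudil, against 5.54, 3.85, 6.66 and 4.55 with vehicle, without overlap (log2FC 2.51 ± 0.24 (SE), adjusted p = 0.0120). Pgf, placental growth factor, a ligand of VEGF receptor 1, had 13.6, 5.68 and 13.2 against 1.31, 1.85, 1.74 and 1.01 with vehicle (log2FC 2.18 ± 0.29 (SE)), and Adm, the vasodilator adrenomedullin, had 1.94 ± 0.38 (SE). The gene that fell was Nrp2, a co-receptor for VEGF and semaphorins (-0.82 ± 0.21 (SE)). Of 25 vasoactive genes and receptors 3 rose and 0 fell (higher calls, 1 without BF2, 1 without V4 and 11 without scaling), namely Edn1, the constrictor endothelin-1, at 4.66, 9.77 and 8.20 against 2.47, 1.78, 1.69 and 1.19 with vehicle (log2FC 1.59 ± 0.25 (SE), adjusted p = 0.0173), Ece1, the enzyme that matures it (0.66), and Calcrl, the receptor that adrenomedullin uses (0.52).

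Neither kinase that fasudil inhibits passed the test. Rock1 had 11.3, 17.2 and 13.05 with BAPN plus fasudil and 12.2, 11.3, 12.9 and 10.4 with vehicle, with overlap (log2FC 0.21 ± 0.15 (SE), limma adjusted p = 0.386). Rock2 had 9.83, 14.5 and 11.2 with BAPN plus fasudil and 7.31, 8.36, 8.74 and 6.81 with vehicle, where all 3 lay above all 4 (log2FC 0.53 ± 0.15 (SE), adjusted p = 0.0573, and 0.0363 without BAPN plus fasudil replicate 1 or 0.0338 without scaling). Of 23 tested genes of the ROCK pathway 1 rose (higher calls, 5 without BF1, 0 without BF2, 0 without V4, 7 without scaling and 0 with all 4 groups), Cfl1, the actin-severing protein cofilin that the pathway silences, with 358, 438 and 351 against 252, 253, 241 and 231 in vehicle libraries (log2FC 0.64 ± 0.13 (SE), adjusted p = 0.0251). Of 26 targets of SRF, MRTF and YAP, transcription factors that respond to actin tension, 2 rose (higher calls, 5 without BF1, 0 without BF2, 0 without V2, 0 without V4, 13 without scaling and 1 with all 4 groups), Tpm4, a tropomyosin (0.79), and Mrtfa itself (0.61). The log2FC was above 0 for 26 of these 26 targets, which is a description and no test, since members of a list can move together. Their median was 0.53, against 0.04 for all tested genes, and fell to 0.27 without BAPN plus fasudil replicate 2. Among all tested genes 4.18% were called higher, and the 1 call of the ROCK list is near that share.

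Among contractile smooth muscle genes nearly none passed. Of 21 tested markers 0 rose and 1 fell, with a median log2FC of 0.36 that was 0.94 without BAPN plus fasudil replicate 1 and -0.22 without BAPN plus fasudil replicate 2. Acta2, whose values are given above, had the highest and the lowest library of all 7 within the BAPN plus fasudil group (log2FC 0.42 ± 0.71 (SE), limma adjusted p = 0.716). Myh11, the smooth muscle myosin heavy chain, likewise had 117, 478 and 264 with BAPN plus fasudil and 225, 320.5, 233 and 131 with vehicle (log2FC 0.18 ± 0.49 (SE), adjusted p = 0.831). Of 15 genes known to rise in smooth muscle cells that leave the contractile state 4 rose (higher calls, 10 without BF1), Thbs1, Timp1, Cd68 and the adhesion molecule Vcam1, the last with 17.6, 15.8 and 19.2 against 5.97, 6.85, 5.36 and 3.65 in vehicle libraries (log2FC 1.54 ± 0.18 (SE), adjusted p = 0.0137). Cd68 is also among the macrophage markers, and which cells made the transcripts of these 4 genes cannot be told apart in whole tissue. The contractile list summed to 2327, 11647 and 6359 with BAPN plus fasudil and to 4455, 6544, 4707 and 2444 with vehicle.

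Few markers of other wall cells passed, beside 4.18% of all tested genes called higher. Of 18 tested adventitial fibroblast markers 4 rose and 0 fell, with a median of 0.83 (higher calls, 8 without BF1, 1 without BF2, 0 without BF3, 11 without V2, 2 without V3, 0 without V4, 12 without scaling and 2 with all 4 groups), and the list summed to 2835, 2019 and 2322 with BAPN plus fasudil against 1109, 1646, 1328 and 1031 with vehicle, without overlap. Dpep1, a membrane dipeptidase, and Dpt, dermatopontin, had log2FC of 1.21 and 0.90. Of 20 endothelial markers 1 rose, Pecam1, the junction protein CD31, with 119, 152 and 97.8 with BAPN plus fasudil and 79.9, 80.7, 53.8 and 58.0 with vehicle (log2FC 0.84 ± 0.21 (SE), limma adjusted p = 0.0429), and 11 were called higher without scaling. None of 6 tested neutrophil markers, 5 of T and NK cells and 6 of B and plasma cells passed in limma's test (1, 2 and 1 at an unadjusted p under 0.05), and of 7 mast cell markers 1 rose, the receptor Kit (log2FC 0.88). Lcn2, a neutrophil and acute-phase protein, had 76.5, 2.94 and 15.7 with BAPN plus fasudil and 0.981, 1.49, 1.87 and 1.18 with vehicle, with replicate 1 far above the rest (adjusted p = 0.0673). None of the 10 sympathetic neuron and 8 airway epithelial markers tested passed, with 0 at an unadjusted p under 0.05. Npy, the nerve peptide neuropeptide Y, had 480.3, 0 and 42.6 with BAPN plus fasudil and 0.930, 13.1, 0.565 and 0.575 with vehicle (adjusted p = 0.285).

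Most red cell genes rose with BAPN plus fasudil. Of 7 tested markers 6 rose and 0 fell, with a median log2FC of 1.81. Higher calls numbered 1 without BF2, 1 without BF3, 3 without V4 and 2 with all 4 groups. Hbb-bs, a beta chain of adult haemoglobin, had 4067, 6739 and 7520.3 with BAPN plus fasudil, against 2297, 1319.9, 2231 and 1123 with vehicle, and the lowest of the 3 was above the highest of the 4 (log2FC 1.83 ± 0.34 (SE), limma adjusted p = 0.0212). Its copy Hbb-bt and the alpha chain genes Hba-a1 and Hba-a2 are near-identical pairs, so each single value is uncertain. Alas2, the haem-making enzyme of immature red cells, had 47.8, 67.2 and 60.3 against 20.1, 12.5, 20.9 and 7.48 with vehicle (log2FC 1.96 ± 0.34 (SE)). The 9 haemoglobin genes took 2.64% ± 1.13 (SD, n = 3) of all FPKM with BAPN plus fasudil and 0.506% ± 0.189 (SD, n = 4) with vehicle (exact two-sided permutation test, p = 0.0571, the smallest possible).

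The main enzyme of haem breakdown rose. Hmox1, the oxygenase that opens the haem ring, had 31.1, 26.6 and 146 with BAPN plus fasudil and 6.41, 7.45, 8.36 and 9.84 with vehicle. Replicate 3 held the top value and the groups did not overlap, with a log2FC of 2.50 ± 0.55 (SE) (limma, adjusted p = 0.0297). The adjusted p was 0.0586 without vehicle replicate 2, 0.0542 without vehicle replicate 3 and 0.0730 without vehicle replicate 4. Of 20 haem, iron and NRF2 target genes 1 other rose and 0 fell, beside 4.18% of all tested genes called higher. It was Slc11a1, which pumps iron out of the phagosome of macrophages (log2FC 1.19), and the list median of 0.07 was near that of all genes. Higher calls numbered 1 without BF3, 1 without V2, 0 without V4 and 7 without scaling. The red cell list summed to 10662, 19570 and 20626 with BAPN plus fasudil and to 6569, 3738, 6026 and 2930 with vehicle, and the part of blood left in the samples was not tested.

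Levels of the leading genes in the other treatment groups are given as descriptions, scaled over all 12 usable libraries, since 1 BAPN column repeats another and 2 BAPN libraries remain. Ucp1 had 529.8, 434 and 512 with BAPN plus fasudil, 21.8 and 444 with BAPN alone, 3463, 4887 and 1386 with fasudil alone and 4256, 3013, 2217 and 4368 with vehicle. Fasudil alone thus overlapped vehicle, and both BAPN libraries were below both. Fasn had 99.6, 178 and 467 with BAPN plus fasudil, 337 and 1141 with BAPN alone, 398, 198 and 1139 with fasudil alone and 3423, 2504, 1012 and 1839 with vehicle, where all libraries of the treated groups but the 1141 and 1139 lay below the vehicle range. Timp1 had 36.7, 53.9 and 171 with BAPN plus fasudil, 81.7 and 13.6 with BAPN alone, 9.42, 3.43 and 12.7 with fasudil alone and 5.15, 9.55, 7.02 and 4.79 with vehicle, and the libraries with BAPN lay above those without it. Thbs1 showed the same order, with 17.7, 13.7 and 26.6 with BAPN plus fasudil, 26.9 and 9.14 with BAPN alone, 3.18, 2.05 and 2.91 with fasudil alone and 1.30, 1.08, 3.28 and 1.03 with vehicle. Igfbp3 was above vehicle in each treated group, with 26.7, 50.03 and 32.1 with BAPN plus fasudil, 14.9 and 19.1 with BAPN alone, 25.8, 32.7 and 7.73 with fasudil alone and 5.78, 4.04, 6.95 and 4.79 with vehicle. Hmox1 had 32.4, 28.0 and 153 with BAPN plus fasudil, 15.2 and 11.5 with BAPN alone, 8.45, 11.6 and 6.28 with fasudil alone and 6.69, 7.80, 8.71 and 10.4 with vehicle, and the combined group stood above all others. Gpnmb had 10.3, 10.00 and 10.8 with BAPN plus fasudil, 5.39 and 5.65 with BAPN alone, 11.0, 5.29 and 4.14 with fasudil alone and 1.02, 2.14, 2.37 and 0.842 with vehicle, so that all treated libraries were above vehicle. C1qb had 247, 87.5 and 132 with BAPN plus fasudil, 184 and 75.8 with BAPN alone, 53.1, 29.5 and 39.1 with fasudil alone and 35.6, 39.3, 29.4 and 31.8 with vehicle, and 2 fasudil libraries lay within the vehicle range.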

How the data were processed

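RNA of mouse aorta was analysed in 3 BAPN plus fasudil and 4 vehicle samples. Per the file headers and its values, the deposited table holds FPKM made by the authors. Per the submitters' processing notes, the tools were Bowtie2, RSEM and DESeq2 (no versions given) and the builds GRCm39 and mm10 (no roles given). The strand setting is not given in the sources used here, and the labels name more than 1 sequencing instrument. Of 28350 genes with an identifier in GENCODE M21 of GRCm38, 2.53% start at the same base in the table, so gene positions are given as in the table, read as GRCm39. Another deposited column, the transcript length, which is no signal, served for the depth estimate only. That estimate is the most frequent depth that FPKM values imply if they stand for 1 read, at 300 to 900 bases. The precision of low values cannot be given without counts.

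FPKM were scaled between libraries by a trimmed mean of log ratios (30% of ratios and 5% of levels trimmed at each end), filtered at 1 FPKM in 2 libraries and tested on log2(scaled FPKM + 1) with limma 3.58.1 in R 4.3.3 (trend and robust prior, no covariate, only these groups), adjusted by Benjamini-Hochberg over all 12884 genes. The procedure was tested on simulated data with noise drawn separately for each gene, which says nothing of genes that move together within a library. The members and the 60 gene lists were chosen with earlier results of these data known. Named are the 15 highest and 15 lowest log2 fold changes among called genes without predicted-gene symbols, without overlap between groups and with a mean of at least 5 in the higher group, the lysyl oxidase genes, Rock1 and Rock2, and up to 8 called members per list by p, or 4 where none passed. The alternatives covered scaling, pseudocount, filter, prior, library weights, all 4 groups in 1 fit, a replicate block and leaving out each library; the fit without mitochondrial chromosome genes was added after seeing the data. Replicate numbers were not used to pair samples. The column of BAPN replicate 2 equals that of BAPN replicate 1 plus 1 FPKM in all 28510 genes and was not used, which makes 1 unused column of per-sample values. Promoters came from RefSeq, GRCm38.p6. Some genes that the naming rule selects are not reported here.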

Additional observations from a re-analysis of the deposited data

Results flagged for a closer look

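Among 57 gene and marker list levels examined in the 4 vehicle libraries, 7 had a library whose distance from its nearest neighbour, as a share of the whole range, exceeded Dixon's 95% critical value for 4 samples. Chance gives about 1 in 20. Vehicle replicate 3 was the library concerned in 6 of them. It had 3.15 scaled FPKM of Thbs1, against 0.975 to 1.25 in the other vehicle libraries, and 29.1 of Elovl6, against 67.6 to 75.5. Its summed levels were 14443.6 for airway epithelial markers, against 10.2 to 22.0, and 824 for neutrophil markers, against 6.83 to 15.1. They were 2681 for macrophage markers, against 330 to 502, and 126 for cardiomyocyte markers, against 19.0 to 33.4. Vehicle replicate 2 had 35.8 over the sympathetic neuron markers, against 4.59 to 7.99 in the other vehicle libraries. Without vehicle replicate 3, 1379 genes were called, of which 1260 were among the 1717 called with it.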

How the results depend on the processing

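Against 1717 calls, limma gave 2865 without scaling (2311 higher, 554 lower), 500 without the filter on low values (24632 genes tested), 4918 with library weights, which gave BAPN plus fasudil replicate 3 a weight of 5.44 and replicate 1 one of 0.235, and 630 with all 4 groups in 1 fit. Leaving out 1 library gave 0 to 2237 calls. The causes of these moves were not tested. The fit without the filter held more tests, and the fits without a library held fewer libraries. The 6 settings of median of ratios, upper quartile, pseudocounts of 0.1 and 0.5, the filter of 5 FPKM in 3 libraries and no trend or robust prior gave 1667 to 1884, and leaving out genes of the mitochondrial chromosome gave 1706. Of the 30 genes named by fold change, none reversed in any setting, which the choice of genes without overlap largely fixed in advance. Of these genes 30 were called without scaling, 25 without the filter and 23 with all 4 groups. In limma's fit of all 4 groups Ucp1, Gmpr, Aspg, Col1a1, AA467197, Ndufa12-ps and Pgk1-rs7 had adjusted p of 0.0549 to 0.132. The differences in mitochondrial and haemoglobin share were -17.2 to -12.5 and 1.73 to 2.78 percentage points without each library. The groups did not overlap in either share, so leaving out a library could not change the direction.

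With a replicate block, limma called 0 genes, with 3128 at an unadjusted p under 0.05 and a smallest adjusted p of 0.10. Deviations of same-numbered samples correlated at 0.115, 0.225 and -0.0607. BAPN plus fasudil replicates 1 and 3 correlated better with another vehicle number, and replicate 2 best with its own. Whether equal numbers mark a pair is not given in the sources used here, and so few correlations cannot decide it. With the block the mitochondrial and haemoglobin shares differed by -13.1 and 2.05 percentage points. The depth without counts limits what can be said of genes near 1 FPKM.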

Other observations

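Genes of protein folding, of the immediate early response and of cell division gave few calls. Among all tested genes 4.18% were called higher and 9.15% lower. Of 21 tested genes of the unfolded protein response and heat shock 3 rose and 1 fell, with a median log2FC of 0.03. Higher calls numbered 1 without BF2, 0 without BF3, 1 without V2, 0 without V4, 7 without scaling and 0 with all 4 groups. Those that rose were Sdf2l1, a partner of chaperones in the endoplasmic reticulum (1.12), Pdia4, a disulphide isomerase (0.76), and Calr, calreticulin (0.49), and the one that fell was Hspd1, the chaperonin of the mitochondrial matrix, at 51.9, 56.7 and 75.6 with BAPN plus fasudil and 149.7, 110.4, 115 and 205 with vehicle (log2FC -1.20 ± 0.25 (SE), limma adjusted p = 0.0251). Of 18 immediate early genes 1 rose (higher calls, 2 without BF1, 0 without BF2, 0 without BF3, 4 without V2, 0 without V4, 6 without scaling and 0 with all 4 groups), the transcription factor Egr1, at 43.2, 31.7 and 31.6 with BAPN plus fasudil and 10.9, 20.4, 9.10 and 15.1 with vehicle (log2FC 1.34 ± 0.27 (SE), adjusted p = 0.0246). As a description and no test, 17 of the 18 had a log2FC above 0. Their median was 0.94, against 0.04 for all tested genes, and 0.44 without BF1. Fos, a subunit of AP-1 chosen after its values were seen, had 26.8, 20.3 and 20.8 with BAPN plus fasudil and 5.24, 13.9, 8.24 and 2.40 with vehicle, without overlap (log2FC 1.67 ± 0.45 (SE), adjusted p = 0.0517). Of 17 cell cycle genes 1 rose, the kinase gene Cdk1 (0.62 ± 0.14 (SE)).

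Of 5 tested platelet markers 1 rose, Gp1bb, part of the receptor for von Willebrand factor (1.41 ± 0.22 (SE)). Of 10 cardiomyocyte markers 1 rose, the myosin light chain gene Myl2, at 1.12, 1.21 and 3.56 with BAPN plus fasudil and 0, 0.228, 0 and 0 with vehicle (log2FC 1.40 ± 0.28 (SE)). Myl2 passed the filter on low values through the BAPN plus fasudil libraries alone. Of 14 skeletal muscle markers 1 rose, the slow troponin gene Tnnt1 (0.87 ± 0.16 (SE)). Among all tested genes 4.18% were called higher. None of 7 lymphatic endothelial and 8 mesothelial markers passed in limma's test (2 and 0 at an unadjusted p under 0.05), with medians of 0.75 and -0.47. The genes with the smallest adjusted p included Sprr1a, a protein of cornified epithelium also known from injured nerve and heart, at 2.49, 2.49 and 3.05 with BAPN plus fasudil and 0.0764, 0, 0.0605 and 0 with vehicle (log2FC 1.83 ± 0.13 (SE), limma adjusted p = 0.0120), and it was chosen after its values were seen. It, too, passed the filter on low values through the BAPN plus fasudil libraries alone.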
